A study of Mus musculus with 8 samples.

Results

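The genes described here make fatty acids, build them into triglyceride, store them in lipid droplets and release them again. The list of 45 was drawn up by function, with earlier results of these data known. Each gene was found by its symbol among the 56884 genes of the deposited count table. Messenger RNA of whole cultures was sequenced from Lacun3, which is a line of mouse lung adenocarcinoma cells. The 4 STK11 KO libraries came from Lacun3 cells in which Stk11 was disrupted with CRISPR, and the 4 STK11 WT libraries from the parental cells. Both were grown untreated in the same serum-containing medium and harvested in logarithmic growth. The labels name a single edited line and do not say whether it is a clone, so the differences below are between these lines, and p-values measure the spread between cultures of each.

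Cells make palmitate from acetyl-CoA by way of malonyl-CoA, then desaturate and elongate it. Acyl-CoA synthetases activate fatty acids, which a chain of acyltransferases and the lipin phosphatases place on glycerol to give triglyceride. Droplets coated with perilipins hold this triglyceride until lipases release it. Stk11 encodes LKB1, the kinase upstream of AMPK, and AMPK is known to inhibit both acetyl-CoA carboxylases by phosphorylation and to restrain SREBP-1, the transcription factor encoded by Srebf1. RNA counts do not show phosphorylation, enzyme activity or lipid content.

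Libraries held 21441601 to 25715008 counts in the STK11 KO group and 18837263 to 21101904 in the STK11 WT group (p = 0.0286 by a two-sided exact permutation test, which cannot go lower with 4 libraries a group). Levels are given in CPM, the count scaled to a common library total after TMM correction for composition, and 1 count was worth 0.0388 to 0.0515 CPM. Stk11 itself averaged 34.7 ± 0.852 CPM in STK11 KO and 66.2 ± 1.79 CPM in STK11 WT libraries (SD, n = 4 each). Pairs of libraries that include STK11 KO replicate 3 differed most, with a chi-square per degree of freedom of 14.1 to 20.4, against 3.25 to 9.51 for all other pairs within a group. Of 9 epithelial markers 6 reached 1 CPM, and their sum was 7692 to 8600.2 CPM in STK11 KO and 8151 to 8581 CPM in STK11 WT libraries. The keratin Krt8 overlapped between groups (2562 to 2953 CPM in STK11 KO, 2783 to 3059 CPM in STK11 WT libraries), Krt18 was lower in the knockout (1452 to 1828 against 2274 to 2371 CPM) and Krt19 higher (3325 to 3623 against 2926 to 3029 CPM). Epcam had 17.2 to 26.2 CPM in STK11 KO and 24.9 to 30.9 CPM in STK11 WT libraries. Cdh1 had 139 to 169 and 141 to 159.8 CPM in the same order. Cldn4 had at most 0.149 CPM in STK11 KO and 0.772 CPM in STK11 WT libraries. Of the lung lineage markers, Nkx2-1 and Sftpc had at most 0.0463 CPM in any library. Napsa had 0.694 to 1.78 CPM in STK11 KO and 0.666 to 1.71 CPM in STK11 WT libraries. The summed level of 6 adipocyte markers was 0.471 to 0.660 CPM in STK11 KO and 1.49 to 1.97 CPM in STK11 WT libraries, with Lep at 0 and Adipoq at no more than 0.0515 CPM. Summed macrophage markers had 12.9 to 25.4 CPM in STK11 KO and 46.3 to 52.9 CPM in STK11 WT libraries, nearly all of it Cd68, with Adgre1 and Marco at 0. Summed endothelial markers had 3.41 to 4.80 CPM in STK11 KO and 1.05 to 1.85 CPM in STK11 WT libraries, with Kdr and Emcn at 0. Most of this was Cdh5 (3.30 to 4.68 and 0.962 to 1.76 CPM in the same order). Summed fibroblast markers had 2.02 to 2.97 and 2.98 to 4.71 CPM, with Col1a2, Lum and Thy1 at 0. Most of that sum was Col1a1 (1.79 to 2.77 and 2.88 to 4.33 CPM). The part of these markers in the results was not tested.

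Members of this pathway moved in both directions in the knockout cells, as did all tested genes, of which 34.4% rose and 33.6% fell. Some paralogues moved apart, such as Scd1 and Scd2, Gpat3 and Gpat4, and Lpin1 and Lpin2. Others moved together: both acetyl-CoA carboxylases fell, as did the tested FADS genes. Of the acyl-CoA synthetases Acsl1, Acsl4 and Acsl5 rose, while Acsl3 did not pass and had a negative value. The secreted lipase regulator Angptl8, the acyltransferase Gpat3, the fatty acid carrier Fabp5, the desaturase Scd2 and the phosphatase Lpin1 rose at least 2-fold. Pnpla2, the first lipase of triglyceride breakdown, was the single member that fell at least 2-fold. Fasn, which makes palmitate, the acetyl-CoA carboxylases Acaca and Acacb, and the polyunsaturated fatty acid desaturases Fads1 and Fads2 fell by less. Of the 45 genes, 40 passed the filter on low counts, and 36 of these passed the quasi-likelihood test of edgeR (adjusted p below 0.05). Among all 13707 tested genes 68.0% passed.

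The 36 changed members were 19 that rose and 17 that fell, which is 52.8% higher against 42.4% higher when libraries are scaled by total counts alone. Among all tested genes 34.4% rose and 33.6% fell. In 32 of the 40 tested members the STK11 KO and STK11 WT values did not overlap, against 60.6% of all tested genes. At least 2-fold changes were found in 6 members, against 16.4% of all tested genes: 5 rose (7.02% of all tested genes) and 1 fell (9.41%). The median log2 fold change, STK11 KO over STK11 WT, was 0.10 for the members and 0.01 for all tested genes. The median absolute log2 fold change was 0.42 and 0.37. In a bulk culture, more cells with a transcript and more transcript per cell cannot be told apart.

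**Figure D1:**
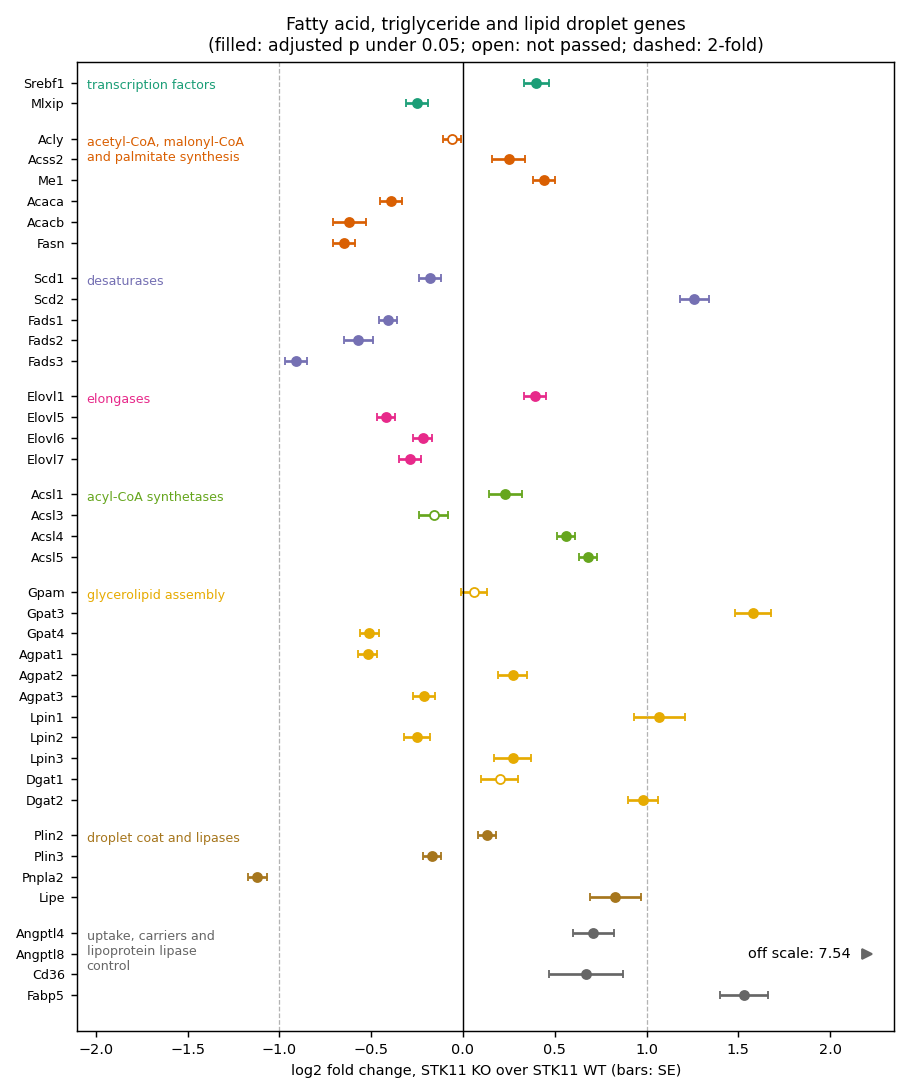
Log2 fold change of the 40 tested genes, STK11 KO over STK11 WT, on the horizontal axis, with genes down the page in groups by role; points are fitted values, bars their SE, and open points genes that did not pass. Angptl8, at 7.54, lies beyond the axis and is drawn as an arrowhead, Gpat3 (1.58) is the largest rise on the axis and Pnpla2 (-1.12) the largest fall.

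The promoter windows of 4 members are shown because they belong to the largest rise, to the acyltransferase and the lipase that moved most in opposite directions, and to the enzyme that completes palmitate. Sequences are RefSeq's, in GRCm38.p6, 5′ to 3′ on the gene's strand, from 250 bases before to 50 bases after the start. Capitals mark the letters CCAAT or their reverse complement ATTGG, the box that the factor NF-Y binds.
Angptl8, chr9:21835260-21835559, plus strand: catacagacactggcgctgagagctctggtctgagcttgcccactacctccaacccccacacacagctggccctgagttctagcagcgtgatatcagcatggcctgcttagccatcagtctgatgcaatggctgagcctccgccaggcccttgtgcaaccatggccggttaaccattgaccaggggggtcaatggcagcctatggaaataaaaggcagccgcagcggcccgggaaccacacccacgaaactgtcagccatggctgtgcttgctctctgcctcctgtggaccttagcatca
Gpat3, chr5:100845979-100846278, plus strand: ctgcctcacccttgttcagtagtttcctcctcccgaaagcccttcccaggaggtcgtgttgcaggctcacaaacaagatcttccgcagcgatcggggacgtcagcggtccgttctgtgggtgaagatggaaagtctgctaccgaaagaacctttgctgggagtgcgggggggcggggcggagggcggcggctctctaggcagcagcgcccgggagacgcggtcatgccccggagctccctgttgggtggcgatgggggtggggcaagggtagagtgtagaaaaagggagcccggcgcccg
Fasn, chr11:120824498-120824797, minus strand: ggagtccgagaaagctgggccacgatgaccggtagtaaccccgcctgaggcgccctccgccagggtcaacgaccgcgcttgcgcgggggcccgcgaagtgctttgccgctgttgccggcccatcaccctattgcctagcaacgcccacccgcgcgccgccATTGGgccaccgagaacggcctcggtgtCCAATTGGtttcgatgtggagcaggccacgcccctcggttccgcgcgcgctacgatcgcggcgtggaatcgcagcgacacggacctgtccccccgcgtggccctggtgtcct
Pnpla2, chr7:141454938-141455237, plus strand: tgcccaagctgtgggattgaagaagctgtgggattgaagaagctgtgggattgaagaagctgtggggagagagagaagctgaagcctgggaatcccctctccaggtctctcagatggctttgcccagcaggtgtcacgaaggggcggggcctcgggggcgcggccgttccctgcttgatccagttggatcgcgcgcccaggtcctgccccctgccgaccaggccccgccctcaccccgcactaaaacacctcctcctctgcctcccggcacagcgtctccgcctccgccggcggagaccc
Fasn held 3 CCAAT boxes, 2 of them overlapping. The windows of Angptl8, Gpat3 and Pnpla2 held none of the 6 motifs searched.

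These motifs, searched on both strands, were a sterol element (TCACNCCAC), CCAAT, the E-box CACGTG, the cAMP element TGACGTCA, the hypoxia core ACGTG, which lies inside the E-box, and the nuclear receptor repeat known as DR1. Windows were available for 35 members, 48 windows in all, and a gene was counted when any of its windows matched. CCAAT was found for 21 of them (60.0%), against 41.1% of the 27025 genes with a window. The E-box was found for 8 (22.9% against 8.09%) and ACGTG for 14 (40.0% against 21.8%). All 8 genes with the E-box are among these 14, so the 2 shares are not separate. Counted by window, CCAAT was in 22 of 48 member windows and in 12289 of 32851 windows of all genes (37.4%). ACGTG was in 16 of 48 and in 6447 of 32851 (19.6%). The sterol element was found for Mlxipl and Acsl1 (5.71% against 1.44%), the cAMP element for Elovl5 (2.86% against 2.03%), and DR1 for none (0.0481% of all genes). Genes that rose and genes that fell both had CCAAT in this window, as with Acsl5 and Fasn. A match describes letters in the reference sequence and not binding.

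Among the transcription factors, Srebf1 rose and Mlxip fell, both by modest amounts. Srebf1, which encodes SREBP-1, the main activator of fatty acid synthesis genes, had 96.2, 83.2, 90.5 and 74.8 CPM in the STK11 KO libraries and 60.8, 70.2, 62.7 and 67.9 CPM in the STK11 WT libraries. All knockout values lay above all parental values, and the log2 fold change was 0.40 ± 0.07 (SE; edgeR adjusted p = 3.09e-05). Mlxip, the glucose-sensing factor MondoA, averaged 48.4 ± 2.43 CPM in STK11 KO and 57.3 ± 1.78 CPM in STK11 WT libraries (SD, n = 4 each; log2 fold change -0.25 ± 0.06, SE). Mlxipl, the related factor ChREBP, had 0.0495, 0, 0.0388 and 0.0463 CPM in STK11 KO libraries, against 0.381, 0.185, 0.229 and 0.154 CPM in STK11 WT libraries. All values were near the level of a few counts and the groups did not overlap. Mlxipl had 3 counts over the STK11 KO group and 20 over the STK11 WT group, a ratio of 0.142 (exact 95% counting interval 0.0270 to 0.478), and was too low for the test. Mlx, the shared partner of both factors and named after its values were seen, rose by 0.68 ± 0.08 (SE) on the log2 scale.

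Fatty acid synthase and both acetyl-CoA carboxylases fell, while Me1 and Acss2, which supply NADPH and acetyl-CoA, rose and Acly did not pass. Fasn, fatty acid synthase, had 274, 232, 250.3 and 231 CPM in STK11 KO libraries, against 382, 404, 385 and 377 CPM in STK11 WT libraries. The groups did not overlap, and Fasn fell by 0.65 ± 0.06 on the log2 scale (SE; edgeR adjusted p = 1.45e-09). Acaca, the cytosolic acetyl-CoA carboxylase, had 44.5, 43.2, 48.3 and 40.2 CPM in STK11 KO libraries, against 59.0, 61.0, 56.2 and 55.5 CPM in STK11 WT libraries. It fell by 0.39 ± 0.06 on the log2 scale (SE; edgeR adjusted p = 1.04e-05), again without overlap. Of the 51-base words in Acaca transcripts 29.0% also occur in Gm5182. That gene was low, at 0.823 ± 0.213 CPM in STK11 KO and 1.13 ± 0.174 CPM in STK11 WT libraries (SD, n = 4 each). Acacb, the mitochondrial carboxylase whose malonyl-CoA limits fatty acid oxidation, fell by 0.62 ± 0.09 (SE) on the same scale. Together the pair amounted to 3.69 ± 0.193 CPM per kb of exon in STK11 KO and 5.11 ± 0.129 CPM per kb in STK11 WT libraries (SD, n = 4 each).

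Acly, the enzyme that cleaves citrate to acetyl-CoA, did not pass the test. Its levels were 259, 234, 238 and 242 CPM in STK11 KO libraries and 257, 261, 243 and 256 CPM in STK11 WT libraries, which overlap (log2 fold change -0.06 ± 0.05, SE; edgeR adjusted p = 0.279). Me1, the malic enzyme that makes NADPH, rose, with 449 ± 33.3 CPM in STK11 KO and 332 ± 4.27 CPM in STK11 WT libraries (SD, n = 4 each; log2 fold change 0.44 ± 0.06, SE). Of the 51-base words in Me1 transcripts 20.7% also occur in Gm7049, a gene whose counts rose as well, by 0.62 ± 0.10 (SE) on the log2 scale at a much lower level, 13.4 ± 1.14 CPM in STK11 KO and 8.69 ± 0.624 CPM in STK11 WT libraries. Acss2, which makes acetyl-CoA from acetate, rose by 0.25 ± 0.09 (SE; edgeR adjusted p = 0.0155). This call was lost without STK11 KO replicate 1 (0.16, adjusted p = 0.0755) and without STK11 WT replicate 4 (0.17, adjusted p = 0.0830).

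The stearoyl-CoA desaturases, which introduce the double bond of oleate, moved apart. Scd2 lies on chromosome 19 (GRCm39, chr19:44282113-44295303, plus strand) close to its paralogue Scd1 (chr19:44382894-44396318, minus strand). Scd2 had 3278, 2513, 2549 and 2703 CPM in STK11 KO libraries, against 1215, 1212, 1139 and 1045 CPM in STK11 WT libraries. Every knockout library was above every parental one, and STK11 KO replicate 1 was the highest. Scd2 rose by 1.26 ± 0.08 on the log2 scale (SE; edgeR adjusted p = 2.78e-12), and by 1.17 without that replicate.

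Scd1 had 173, 148, 154 and 160.5 CPM in STK11 KO libraries and 183, 189, 177 and 171 CPM in STK11 WT libraries. The groups overlapped slightly, through STK11 KO replicate 1, and Scd1 fell by 0.18 ± 0.06 (SE; edgeR adjusted p = 0.00732). Per kb of exon, Scd2 was the most abundant of the 45 genes in both genotypes, at 505 ± 64.9 CPM per kb in STK11 KO and 211 ± 14.7 CPM per kb in STK11 WT libraries. Its share of the Scd1 and Scd2 total was 93.9% ± 0.338 in STK11 KO and 85.1% ± 0.423 in STK11 WT libraries (SD, n = 4 each). Both genes share 2.58% of Scd2's 51-base words, so a small part of their reads could be assigned to either. Scd2 also weighed on the summed level of the list: the 45 genes took 0.650% ± 0.0363 of counts in STK11 KO and 0.517% ± 0.0114 in STK11 WT libraries, and without Scd2 0.383% ± 0.00856 and 0.398% ± 0.00465, in the same order.

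All 3 tested FADS genes, a cluster on chromosome 19, fell. Fads1 and Fads2 encode the desaturases that convert dietary linoleic and alpha-linolenic acid to longer polyunsaturated fatty acids. Fads1 averaged 89.6 ± 2.50 CPM in STK11 KO and 119 ± 4.71 CPM in STK11 WT libraries, and Fads2 28.0 ± 3.40 and 41.3 ± 2.33 CPM in the same order (SD, n = 4 each). Fads3, which acts on sphingoid bases, fell most, with 58.3, 64.2, 67.6 and 61.2 CPM in STK11 KO libraries and 121, 118, 114 and 120.0 CPM in STK11 WT libraries. The groups lay far apart, and the fall was 0.91 ± 0.06 on the log2 scale (SE; edgeR adjusted p = 2.25e-12).

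Among the elongases 3 fell and 1 rose. Elovl5, which extends polyunsaturated fatty acids, had 139, 128, 131 and 133 CPM in STK11 KO libraries, against 187, 179, 173 and 170.3 CPM in STK11 WT libraries, and fell by 0.42 ± 0.05 (SE) on the log2 scale. Elovl6, which extends palmitate, and Elovl7 fell by 0.22 ± 0.05 and 0.29 ± 0.06 (SE). Elovl1, which makes saturated very-long-chain fatty acids, rose by 0.39 ± 0.06 (SE), with no overlap between 57.2 to 64.0 CPM in STK11 KO libraries and 44.4 to 46.6 CPM in STK11 WT libraries. Elovl1's share of the 4 tested elongases per kb of exon was 27.1% ± 0.762 in STK11 KO and 18.1% ± 0.453 in STK11 WT libraries (SD, n = 4 each). Elovl4 was not measurable, with 2 counts over the STK11 KO group and 1 over the STK11 WT group.

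**Figure D2:**
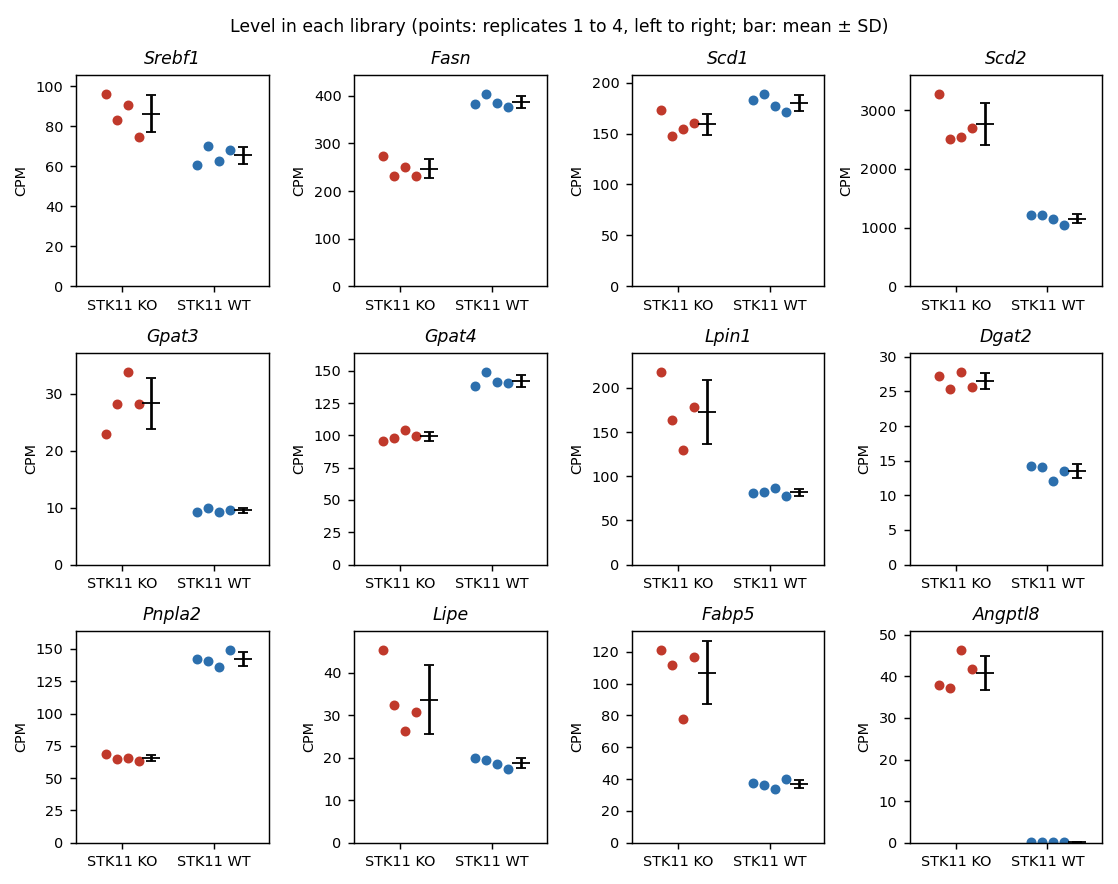
Level in CPM on the vertical axis, from 0, for 12 members in the 4 STK11 KO and 4 STK11 WT libraries; points are single libraries and the black bar is mean ± SD. Scd2 and Gpat3 are higher in every knockout library while their paralogues Scd1 and Gpat4 are lower on average, and Lpin1, Lipe and Fabp5 spread more among knockout than among parental libraries.

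Of the acyl-CoA synthetases, which trap fatty acids in the cell as CoA esters, Acsl5, Acsl4 and Acsl1 rose. Acsl5 had 355, 360.3, 366 and 357 CPM in STK11 KO libraries, against 225, 235, 214 and 227 CPM in STK11 WT libraries. Acsl4, which prefers arachidonic acid, had 258, 254, 249.8 and 257 CPM in STK11 KO libraries, against 185, 174, 162 and 168 CPM in STK11 WT libraries. Both sets are tight and separate, with log2 fold changes of 0.68 ± 0.05 and 0.56 ± 0.05 (SE; largest edgeR adjusted p 2.59e-09, for Acsl4). Acsl1 rose by only 0.23 ± 0.09 (SE), and the call was lost without STK11 KO replicate 1 (0.18, adjusted p = 0.0671), without STK11 WT replicate 3 (0.20, adjusted p = 0.0639) and without STK11 WT replicate 4 (0.17, adjusted p = 0.0947).

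Acsl3, the synthetase of nascent droplets, had 136, 112, 94.5 and 118 CPM in STK11 KO libraries and 136, 128, 126 and 126 CPM in STK11 WT libraries. The knockout values span the parental ones, and the test was not passed (log2 fold change -0.16 ± 0.08, SE; edgeR adjusted p = 0.0764). It was passed without STK11 KO replicate 1, at -0.25 (adjusted p = 0.00214), and the value was -0.08 (adjusted p = 0.250) without STK11 KO replicate 3. Acsl3 overlaps Utp14b on the same strand, which fell by 1.19 ± 0.11 (SE) on the log2 scale, and 3.57% of Acsl3's 51-base words also occur in Utp14b transcripts. Per kb of exon, the 4 synthetases summed to 149.8 ± 3.82 CPM in STK11 KO and 109.7 ± 4.03 CPM in STK11 WT libraries (SD, n = 4 each).

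The first acylation of glycerol-3-phosphate was divided differently among its paralogues. Gpat3, an acyltransferase of the endoplasmic reticulum (chr5:100993579-101046968, plus strand), had 23.0, 28.2, 33.8 and 28.1 CPM in STK11 KO libraries, against 9.28, 10.0, 9.16 and 9.52 CPM in STK11 WT libraries. The lowest knockout value was well above the highest parental one, and Gpat3 rose by 1.58 ± 0.10 on the log2 scale (SE; edgeR adjusted p = 5.43e-12). Without STK11 KO replicate 3 the value was 1.48. Gpat4, its relative in the same membrane, had 95.9, 98.2, 104 and 99.5 CPM in STK11 KO libraries, against 138, 149, 141 and 140.2 CPM in STK11 WT libraries. It fell by 0.51 ± 0.05 (SE; edgeR adjusted p = 1.02e-08). Gpam, the mitochondrial enzyme, gave overlapping values that averaged 28.8 ± 1.65 CPM in STK11 KO and 27.6 ± 1.07 CPM in STK11 WT libraries (SD, n = 4 each; edgeR adjusted p = 0.426).

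Per kb of exon, Gpat3 made up 29.5% ± 2.60 of the 3 enzymes in STK11 KO and 9.65% ± 0.109 in STK11 WT libraries, and Gpat4 54.7% ± 1.85 and 75.6% ± 0.664 in the same order (SD, n = 4 each). Their summed level was 27.3 ± 1.93 CPM per kb in STK11 KO and 28.1 ± 0.853 CPM per kb in STK11 WT libraries, within the spread between libraries. This sum and these shares depend on exon length, which is greater for Gpat4 than for Gpat3. In CPM without this scaling, Gpat4 fell by more than Gpat3 and Gpam rose together, so the unscaled sum was lower in the knockout. The unscaled share of Gpat3 was smaller in both genotypes, and still larger in the knockout than in parental cells. An antisense transcript, 4930458D05Rik, shares 25.5% of Gpat3's 51-base words, and it was low, at 0.440 ± 0.119 CPM in STK11 KO and 0.531 ± 0.284 CPM in STK11 WT libraries.

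The next acyltransferases split as well. Agpat1, which makes phosphatidic acid, had 113, 109.7, 115 and 109 CPM in STK11 KO libraries, against 154, 167, 159 and 161 CPM in STK11 WT libraries, and fell by 0.52 ± 0.05 (SE). Agpat3 fell by 0.21 ± 0.06 and Agpat2 rose by 0.27 ± 0.08 (SE; edgeR adjusted p = 0.00307 and 0.00584). The Agpat2 groups overlapped through STK11 WT replicate 4.

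Lipins, which convert phosphatidic acid to diacylglycerol and, in the nucleus, act on transcription, differed by member. Lpin1 (chr12:16585670-16696967, minus strand) had 218, 164, 129.8 and 178 CPM in STK11 KO libraries, against 80.9, 81.6, 87.0 and 77.8 CPM in STK11 WT libraries. Its knockout values ranged widely but all lay above the parental ones, and Lpin1 rose by 1.07 ± 0.14 on the log2 scale (SE; edgeR adjusted p = 0.000129). Over single libraries left out the value ran from 0.95, without STK11 KO replicate 1, to 1.19, without STK11 KO replicate 3. Lpin2 fell by 0.25 ± 0.07 (SE; edgeR adjusted p = 0.00202), with 155, 127, 119 and 142 CPM in STK11 KO libraries and 165, 159, 166 and 157 CPM in STK11 WT libraries. Per kb of exon, Lpin1 held 56.6% ± 3.22 of lipin RNA in STK11 KO and 35.8% ± 0.637 in STK11 WT libraries (SD, n = 4 each), so that it stood above Lpin2 in the knockout and below it in parental cells. Lpin3, at 8.29 to 9.39 CPM in STK11 KO and 6.95 to 7.82 CPM in STK11 WT libraries, passed narrowly (edgeR adjusted p = 0.0282) and lost the call without any of 5 single libraries, STK11 KO replicates 2 and 3 and STK11 WT replicates 1, 3 and 4 (adjusted p 0.0526 to 0.0752).

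Diacylglycerol acyltransferases complete triglyceride, and here Dgat2 rose. Dgat2 had 27.2, 25.4, 27.8 and 25.6 CPM in STK11 KO libraries, against 14.2, 14.1, 12.0 and 13.5 CPM in STK11 WT libraries. The groups were well separated and the log2 fold change was 0.98 ± 0.08 (SE; edgeR adjusted p = 2.65e-10). Dgat1, an unrelated protein with the same activity, had 13.3 to 16.2 CPM in STK11 KO and 11.5 to 14.7 CPM in STK11 WT libraries and did not pass (0.20 ± 0.10, SE; edgeR adjusted p = 0.0714). Dgat1 passed when STK11 KO replicate 4 or STK11 WT replicate 2 was left out (adjusted p = 0.0413 and 0.0241). The share of Dgat2 in the pair, per kb of exon, was 64.2% ± 1.36 in STK11 KO and 51.1% ± 2.32 in STK11 WT libraries (SD, n = 4 each).

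**Figure D3:**
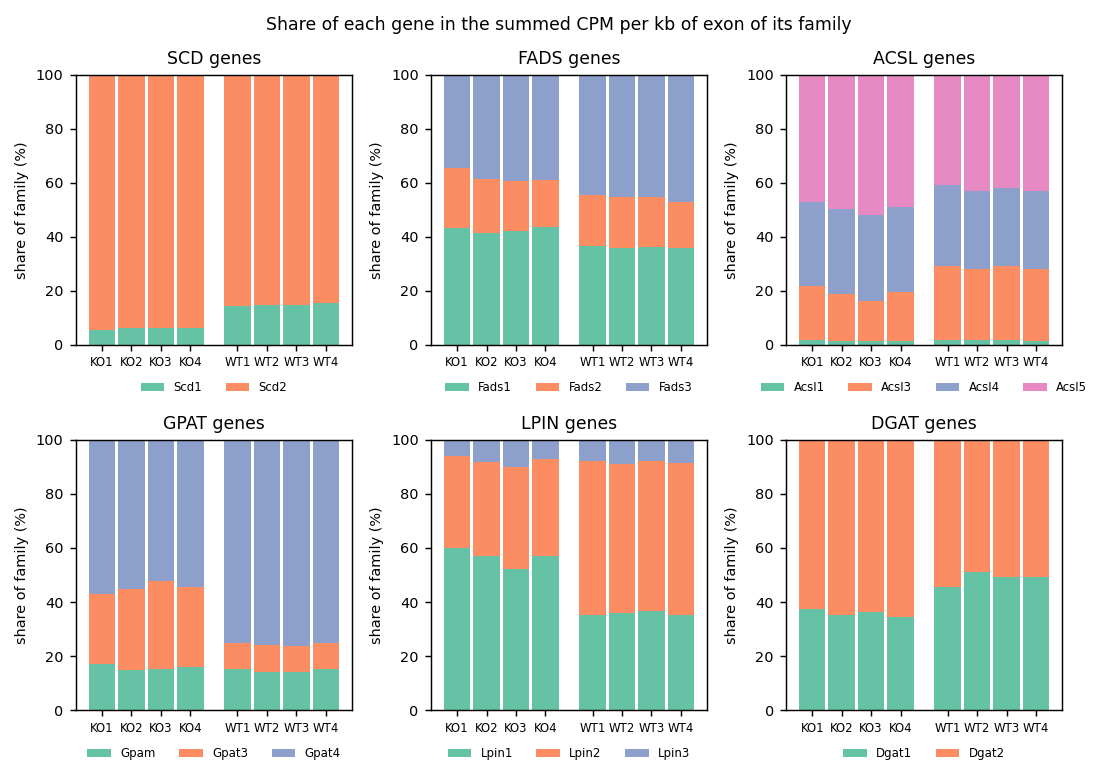
Share of each gene, in percent on the vertical axis, in the summed CPM per kb of exon of its family, for 4 STK11 KO and 4 STK11 WT libraries along the horizontal axis; each stacked bar is a library. Scd2 (93.9% against 85.1%), Gpat3 (29.5% against 9.65%), Lpin1 (56.6% against 35.8%) and Dgat2 (64.2% against 51.1%) take larger mean shares in the knockout libraries.

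Lipolysis genes moved in opposite directions. Pnpla2, which encodes adipose triglyceride lipase (chr7:141035111-141040656, plus strand), had 68.3, 64.9, 65.3 and 63.5 CPM in STK11 KO libraries, against 142, 141, 136 and 149 CPM in STK11 WT libraries. Values were tight within each genotype and far apart between them, with a fall of 1.12 ± 0.05 on the log2 scale (SE; edgeR adjusted p = 1.88e-14). Lipe, the hormone-sensitive lipase that cleaves diacylglycerol next, had 45.3, 32.4, 26.3 and 30.7 CPM in STK11 KO libraries, against 20.0, 19.4, 18.6 and 17.3 CPM in STK11 WT libraries. It rose by 0.83 ± 0.14 (SE; edgeR adjusted p = 0.000208), and by 0.66 without STK11 KO replicate 1, the highest library. An antisense transcript, 4732471J01Rik, shares 10.7% of Lipe's 51-base words. Its level was 2.90 ± 0.501 CPM in STK11 KO and 2.40 ± 0.490 CPM in STK11 WT libraries (SD, n = 4 each). Mgll, the last lipase of the sequence, had no count in the STK11 KO group and 3 in the STK11 WT group, where 3 counts correspond to 0.0338 and 0.0358 CPM over the group. Abhd5, the protein that activates the Pnpla2 product and named after its values were seen, rose to 50.4 ± 1.80 CPM in STK11 KO libraries, against 34.2 ± 1.20 CPM in STK11 WT libraries (SD, n = 4 each; log2 fold change 0.56 ± 0.06, SE).

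Of the perilipins on the list, Plin2 and Plin3 changed little. Plin2, the perilipin of most non-adipose cells and per kb of exon the third most abundant gene of the list in both genotypes, had 309.9, 309, 313 and 283 CPM in STK11 KO libraries and 265, 277, 276 and 290.1 CPM in STK11 WT libraries. The groups overlapped through STK11 KO replicate 4 and STK11 WT replicate 4, and the rise of 0.13 ± 0.05 (SE; edgeR adjusted p = 0.0308) was lost when STK11 KO replicate 2 or STK11 WT replicate 1, 2 or 3 was left out (adjusted p 0.0541 to 0.117). Plin3 fell by 0.17 ± 0.05 (SE; edgeR adjusted p = 0.00820).

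Genes for uptake, carriage and the control of lipoprotein lipase held the largest change. Angptl8, a secreted protein of liver and fat that regulates lipoprotein lipase together with its relatives (chr9:21746806-21748643, plus strand), had 37.9, 37.3, 46.3 and 41.7 CPM in STK11 KO libraries, against 0.190, 0.232, 0.229 and 0.206 CPM in STK11 WT libraries. It was near silent in all parental libraries and moderately abundant in all knockout ones, with a log2 fold change of 7.54 ± 0.17 (SE; edgeR adjusted p = 2.58e-20). Over single libraries left out the value ran from 7.47 to 7.58. Per kb of exon it ranked 5 of the 45 genes in STK11 KO libraries, at 47.2 ± 4.78 CPM per kb, and ranked 40 in STK11 WT libraries, at 0.248 ± 0.0227 CPM per kb (SD, n = 4 each). These ranks depend on the summed length of all annotated exons, 0.865 kb for Angptl8 against 3.57 kb for Fabp5. Without this scaling Angptl8 averaged 40.8 CPM in STK11 KO libraries, below Fabp5 at 107 CPM. The 1838 bases of Angptl8 lie wholly within Dock6 on the other strand, and Dock6 rose by 0.83 ± 0.09 (SE), with 39.3 ± 4.35 CPM in STK11 KO and 22.1 ± 2.57 CPM in STK11 WT libraries. Of Angptl8's 51-base words 0.0% occur in annotated transcripts of other genes on either strand, so the overlap is not one of shared transcript sequence. How the counting used strand is not stated by the labels or notes. The part of Dock6 reads in the Angptl8 count was not tested.

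Lipoprotein lipase itself, Lpl, had no count in any library, which allows up to 0.0338 CPM in the STK11 KO group and 0.0358 CPM in the STK11 WT group (3 counts over the group, for counting error only). Angptl4, an inhibitor of that lipase, had 10.1, 9.79, 12.5 and 9.77 CPM in STK11 KO libraries, against 6.38, 6.71, 6.64 and 6.12 CPM in STK11 WT libraries, and rose by 0.71 ± 0.11 (SE; edgeR adjusted p = 6.57e-06).

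Of the fatty acid carriers Fabp5, the form found in epithelia, rose. It had 121, 112, 77.8 and 117 CPM in STK11 KO libraries, against 37.7, 36.4, 33.6 and 40.0 CPM in STK11 WT libraries. STK11 KO replicate 3 was lowest among knockout libraries yet above all parental ones, and the log2 fold change was 1.53 ± 0.13 (SE; edgeR adjusted p = 1.07e-06), or 1.66 without that replicate. Gm6166, a gene that shares 4.98% of Fabp5's 51-base words, rose alongside by 1.59 ± 0.10 (SE), with 44.7 ± 7.49 CPM in STK11 KO and 14.8 ± 0.589 CPM in STK11 WT libraries, and reads of this pair cannot be told apart with certainty.

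Fabp4, the adipocyte form, stayed below the filter, with 50 counts over the STK11 KO group and 6 over the STK11 WT group, a ratio of 7.87 (exact 95% counting interval 3.37 to 22.5). Cd36, a fatty acid uptake receptor, was low, at 1.68 to 2.45 CPM in STK11 KO and 1.24 to 1.62 CPM in STK11 WT libraries, and rose by 0.67 ± 0.20 (SE; edgeR adjusted p = 0.00565). Of the 6 adipocyte markers, Lep was at 0, Adipoq, Plin1 and Cfd were at or near 0, and Retn reached at most 0.347 CPM in STK11 KO and 0.183 CPM in STK11 WT libraries. The difference in their sum came mostly from Cidec, a droplet protein gene, with 0.282 to 0.463 CPM in STK11 KO and 1.18 to 1.81 CPM in STK11 WT libraries.

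Genes around this pathway, a list of 88 chosen by function with earlier results of these data known, were counted in the same fit. Of these, 64 were tested, 30 rose, 20 fell and 14 did not pass (78.1% called against 68.0% of all tested genes; median log2 fold change 0.12 against 0.01). Among the largest rises of genes with at least 5 CPM were Hilpda, a droplet protein that inhibits the Pnpla2 product (1.73 ± 0.10, SE), the acyl-CoA synthetase Acsl6 (1.36 ± 0.14) and Insig1, the sterol-regulated anchor of SREBPs (1.27 ± 0.29). Hilpda had 294, 275, 219 and 298 CPM in STK11 KO libraries, against 80.6, 78.9, 93.8 and 73.4 CPM in STK11 WT libraries. Srebf2, which encodes the sterol-regulating relative of SREBP-1 and is named after its values were seen, rose by 0.77 ± 0.06 (SE).

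The largest falls in that list among genes that reached 5 CPM in either group were Gpd1, which makes glycerol-3-phosphate for triglyceride (-3.95 ± 0.20, SE), the perilipin Plin4 (-2.52 ± 0.23), the acyltransferase Mogat2 (-1.42 ± 0.10) and the diacylglycerol lipase Daglb (-1.10 ± 0.10). Below that level Cidec, named after its values were seen, fell by 2.08 ± 0.29 (SE). Gpd1 had 0.644, 0.612, 1.40 and 0.417 CPM in STK11 KO libraries, against 11.8, 13.5, 10.9 and 13.4 CPM in STK11 WT libraries. Parental cells thus held the Gpd1 transcript at a moderate level and knockout cells at 1.40 CPM or less. The related gene Gpd1l of the same list, named after its values were seen, was more abundant in both genotypes. It averaged 54.4 ± 2.55 CPM in STK11 KO and 112 ± 3.14 CPM in STK11 WT libraries (SD, n = 4 each; log2 fold change -1.05 ± 0.05, SE). By role, all 5 tested genes for acetyl-CoA and NADPH supply rose. Of 9 tested genes for glycerolipid synthesis 6 fell and 2 rose. Of 14 for SREBP1 and ChREBP control 6 rose and 3 fell. Of 9 for elongation and mitochondrial synthesis 4 rose and 3 fell. Activation and uptake had 4 rises and 0 falls among 8 tested genes. Lipolysis and lipoprotein lipase control had 5 rises and 4 falls among 9. Of 10 tested droplet coat and assembly genes 4 rose and 4 fell. Among all tested genes 34.4% rose and 33.6% fell, so the droplet counts lie near that background.

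**Figure D4:**
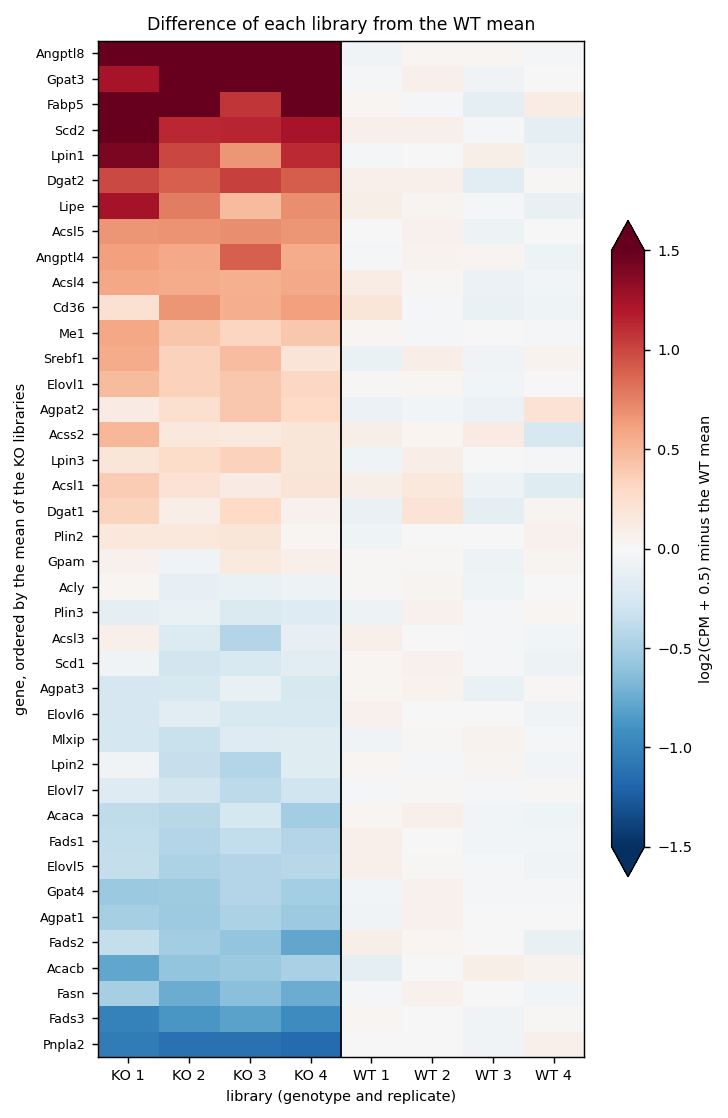
Difference of each library from the STK11 WT mean, in log2(CPM + 0.5), for the 40 tested members (rows, ordered by the mean of the knockout libraries) in the 4 STK11 KO and 4 STK11 WT libraries (columns); red is higher and blue lower, and the color scale ends at 1.5 in either direction. Knockout libraries share the direction of the strong changes from Angptl8 to Pnpla2, and rows such as Lipe and Lpin1 differ in strength between STK11 KO replicates 1 and 3. Acsl3, which did not pass, differs in sign between them (0.079 and -0.445).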

How the data were processed

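Raw counts per gene were deposited by the authors for 8 libraries and 56884 genes, with a table of log2 CPM for 15726 genes. Per the submitters' processing notes, FastQC 0.11.8, STAR 2.7.9a, featureCounts 1.6.0, edgeR, limma and the build GRCm39 were used; counting options were not stated. Groups follow the genotype labels.

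Counts were tested with edgeR 4.0.16 (glmQLFit, robust, then glmQLFTest) in R 4.3.3, with TMM scaling, filterByExpr and Benjamini-Hochberg adjustment over 13707 genes. "Rose" and "fell" mean an adjusted p under 0.05. The SE is the absolute log2 fold change over the square root of F. Permutation tests used scipy 1.17.1. Levels per kb divide CPM by union exon length in GENCODE M21 (GRCm38), which also served to find 51-base words shared between transcripts. Shares within families carry no test. The test was run on simulated counts in which 200 of 13707 genes changed. It recovered 83.3% of 1.5-fold, 96.9% of 2-fold and 100.0% of 4-fold changes, and 6.15% of its calls were false. In the data 68.0% of genes passed, so the simulation does not check the test at such a share.

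Members, lists and motifs were chosen with earlier results of these data known. By rule, every library's value is given for Srebf1, Mlxipl, Acly, Acaca, Fasn, Scd1 and members changed at least 2-fold, and the 4 largest rises and falls with at least 5 CPM are named from the surrounding list, except 1 gene that is not reported here; library values of other members were added after they were seen. Alternatives were DESeq2's size factors, scaling by library size, other count filters, DESeq2 1.42.0, limma 3.58.1 on voom and on the deposited log2 values, the replicate number as a block, and leaving out each library.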

Additional observations from a re-analysis of the deposited data

Results flagged for a closer look

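In groups of 4 libraries, 5 member values stood apart from the other 3 by Dixon's criterion, out of 82 groups examined; chance alone flags about 1 in 20. Acss2 was 43.8 CPM in STK11 KO replicate 1, against 34.2 to 35.0 CPM in the other knockout libraries. Agpat2 was 28.4 CPM in STK11 WT replicate 4, against 22.7 to 23.5 CPM. Agpat3 was 61.6 CPM and Angptl4 12.5 CPM in STK11 KO replicate 3, against 55.8 to 56.3 CPM and 9.77 to 10.1 CPM. Plin2 was 283 CPM in STK11 KO replicate 4, against 309 to 313 CPM in the others.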

How the results depend on the processing

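The 16 alternatives gave 640 values for the 40 tested members, of which 610 kept their direction and their side of the threshold. The number of changed members stayed between 33 and 38, 31 of the 36 calls (14 rises and all 17 falls) held under every alternative, and the 5 lost under at least 1 were Acss2, Acsl1, Agpat2, Lpin3 and Plin2, all rises. Scaling by library size alone, which shifted the median log2 fold change of all genes by -0.08, left 14 rises and 19 falls, ended the calls of those 5 genes, and turned Gpam, which never passed, to -0.02. Acly and Acsl3 passed under it, at -0.15 and -0.25. The replicate numbers did not pair the libraries: deviations of same-numbered libraries correlated at -0.121 to 0.035, and not every library correlated best with its own number. With the replicate block 36 members changed, 18 higher and 18 lower; Acsl3 passed and Plin2 did not. For the companion list 47 to 51 genes changed over all alternatives. Depth limits Mlxipl, Elovl4, Mgll, Lpl and Fabp4, which had too few counts to be tested in the main comparison.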

Other observations

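Libraries of the knockout line were not equally high in these genes. Of the 40 tested members, 21 (52.5%) had their highest STK11 KO value in replicate 1 and 14 (35.0%) in replicate 3, against 27.3% and 31.6% of all tested genes. Among STK11 WT libraries 17 members (42.5%) peaked in replicate 2, against 26.8% of all tested genes. The coefficient of variation among STK11 KO libraries was 24.2% for Lipe, 21.1% for Lpin1 and 18.4% for Fabp5, against 6.19%, 4.67% and 7.24% among STK11 WT libraries. Its median over the tested members was 7.12% among STK11 KO and 4.16% among STK11 WT libraries, and over all tested genes 9.11% and 6.28%. Insig1 followed the same order as Lpin1, with 167, 118, 64.0 and 119.7 CPM in STK11 KO replicates 1 to 4 and 43.9 to 56.5 CPM in STK11 WT libraries.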
